A study of Mus musculus with 20 samples.

Results

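Enzymes of xenobiotic (foreign compound), aldehyde and glutathione metabolism were followed in jejunal epithelium after loss of 2 histone demethylases. The list held every gene symbol present in both deposited tables that names a cytosolic glutathione S-transferase of the alpha, mu, omega, pi or theta class, a microsomal glutathione S-transferase (Mgst), a UDP-glucuronosyltransferase (Ugt), a cytochrome P450 of families 1 to 4 (Cyp), a sulfotransferase (Sult) or an aldehyde dehydrogenase (Aldh), together with Nqo1, Gclc, Gclm and Ephx1. A symbol also needed a mean of at least 0.5 CPM (a gene's reads relative to all reads that the library has in genes) over the control libraries of each table. This left 93 members of the 113 symbols with such names in both tables, which share 15882 symbols in all. The members were 16 Aldh genes, 35 Cyp genes, 18 cytosolic and 3 microsomal glutathione S-transferases, 10 Ugt genes, 7 Sult genes, Ephx1, Nqo1, Gclc and Gclm. The control values used for this choice also enter the comparisons below, so the level itself is no result. Near the level, the choice favours genes that are lower in DKO. Just inside it were Cyp4f41-ps (0.537 CPM, the lower of its 2 control means) and Aldh3b2 (0.522 CPM), and just outside were Cyp2c67 (0.450 CPM) and Cyp2t4 (0.400 CPM). A further 10 symbols with such names stood only in the acute table, Cyp1b1 at up to 23.5 CPM and the others below 0.39 CPM, and 1 stood only in the prolonged table.

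The samples were poly(A) RNA of jejunal intestinal epithelial cells from female mice, and the series' design text places these cells in the crypt. Control animals are labelled Control/WT, and the others carry the Kdm6a/Kdm6b knockout, called DKO here: both genes encode enzymes that remove methyl groups from lysine 27 of histone H3, a mark of silenced genes. In the acute model (5 control and 7 DKO libraries) RNA was taken 7 days after ablation was induced, and in the prolonged model (3 control and 5 DKO libraries) 5 months after it. The labels used here give neither the strain, the animals' age, the recombinase and its promoter, nor whether the controls received the inducing treatment. The acute labels name an animal for each library and the prolonged labels only number biological replicates, so a p-value measures the spread between libraries as labelled.

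Xenobiotic metabolism runs in steps. Cytochromes P450 add a reactive group or oxidise a fatty acid, aldehyde dehydrogenases and quinone or epoxide enzymes deal with the reactive products, and Ugt, Sult and glutathione S-transferase enzymes attach glucuronic acid, sulfate or glutathione so that transporters can export the compound. The small intestine is the first organ to meet ingested compounds, and many of these genes are known to be induced through the receptors and sensors AHR, PXR, CAR, PPAR alpha and NRF2. Glutathione itself is made in a first, rate-limiting step by the glutamate-cysteine ligase subunits Gclc and Gclm and in a second step by Gss.

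The 2 deleted genes were checked first, and no DKO library reached the controls of its time. Kdm6a had 66.1 ± 6.62 CPM (mean ± SD, n = 5) in the acute controls and 42.6 ± 2.73 CPM (n = 7) in DKO, and 76.2 ± 5.95 (n = 3) against 49.1 ± 3.93 CPM (n = 5) in the prolonged model. Kdm6b had 101 ± 6.71 against 70.4 ± 8.87 CPM and 102 ± 3.85 against 76.3 ± 4.98 CPM. Libraries held between 9914740 and 26586000 reads in genes. The members took 1.28 ± 0.12% of these reads in the acute controls, 1.24 ± 0.20% in acute DKO, 1.37 ± 0.15% in the prolonged controls and 1.28 ± 0.08% in prolonged DKO. On the leading principal component of the acute libraries, over all genes, DKO libraries 3 and 4 scored 34.0 and 45.9, where the other 10 ranged from -28.0 to 12.1. The members' median distance from the acute control means, on the log2 scale, was -0.13 to 0.13 in the other acute DKO libraries. In DKO 3 and 4 it was -0.29 and -0.71, a distance that includes any effect of genotype. These 2 libraries carry the highest animal numbers of the acute labels, with no control near them, so an effect of that set of animals cannot be told apart from library quality or genotype. Without them 18 of the 91 members tested at the acute time changed the sign of their log2 fold change, none of them called with all libraries. Values without them are given beside the calls that they change and for some of the other members.

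Markers of cell types moved between the groups as well. The summed level of 12 cell cycle genes was 1142 to 1567 CPM in acute controls and 724 to 1024 CPM in acute DKO, and 12 of 12 fell, while in the prolonged model it was 1497 to 1810 against 1092 to 1314 CPM and 11 of 12 fell. Of 7 Paneth cell markers 6 fell at each time (sums of 4335 to 9080 against 726 to 3834 CPM, then of 7323 to 8035 against 1905 to 7156 CPM). Of 7 stem cell markers 3 fell at the acute time (1960 to 2577 against 840.2 to 1769 CPM) and 1 at the prolonged time (2189 to 2531 against 1572 to 1806 CPM). The 15 absorptive enterocyte markers, the cell type best known for this metabolism, summed to 33175 to 49407 CPM in acute controls and 42841 to 56568 CPM in acute DKO, with 4 higher and 1 lower, and to 41556 to 54806 against 53888 to 57464 CPM at the prolonged time, with 2 higher and 1 lower. The sums of immune markers overlapped between the groups at both times (393 to 731 against 370.2 to 1094 CPM, and 264 to 550.4 against 352 to 794 CPM), as did those of stromal markers (26.8 to 162 against 16.1 to 616 CPM, and 2.67 to 4.54 against 3.07 to 9.76 CPM). Of the 8 immune markers 1, Itgam, was higher at the prolonged time, with no overlap (limma adjusted p = 0.0157). Liver is the other organ known for these families, and the 6 hepatocyte markers, Cyp2e1 among them, summed to 4.56 to 13.0 CPM in acute controls, 0.839 to 6.85 CPM in acute DKO, 8.88 to 9.84 CPM in prolonged controls and 5.49 to 7.01 CPM in prolonged DKO. Albumin, Alb, had group means of at most 0.657 CPM and was not called, and the transport protein gene Ttr, the most abundant of the list, was lower at both times (5.12 against 2.21 and 5.91 against 3.51 CPM, log2 fold changes -0.97 and -0.62, limma adjusted p = 0.0270 and 0.0113). None of the marker genes listed for the epithelial types named here was absent from the tables. The part of these shifts in the members' changes was not tested, and in bulk RNA fewer cells of a type and less RNA per cell cannot be told apart.

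At the acute time 22 of 91 members tested passed an adjusted p of 0.05 in limma's moderated test on log2(CPM + 1), 8 of them higher and 14 lower in DKO. Of all 13601 genes tested, 15.0% passed, 2.90% higher and 12.1% lower. At the prolonged time 32 of 91 members passed, 14 higher and 18 lower, where 14.7% of 13316 genes passed, 5.74% higher and 8.94% lower. All libraries of the DKO group lay above all controls for 1 member and below them for 9 at the acute time (1.24% and 6.55% of all genes), and for 11 and 19 members at the prolonged time (8.82% and 11.7% of all genes). The members' median log2 fold change was -0.17 acutely and -0.13 in the prolonged model, against -0.07 and 0.00 over all genes tested. The members' acute median depended on the setting: it was -0.09 to -0.07 with composition factors and -0.0067 without acute DKO 3 and 4 (-0.04 over all genes then). The acute split into higher and lower calls depended on the scaling: with TMM or other composition factors, and by 3 tools, members split 11 to 12 higher and 9 to 11 lower, all genes tested went from 19.4% of calls higher to between 37.0% and 46.5%, and the median of all genes moved to between 0.01 and 0.03. Without acute DKO 3 and 4, 15 members were higher and 14 lower, and 18 of the 22 acute calls remained. With blocks of animals whose numbers in the acute labels are close together, 12 of the 22 remained. In that fit the comparison rests on 9 libraries in 3 blocks, since control 5 and DKO 3 and 4 have no library of the other genotype in their block.

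**Figure D1:**
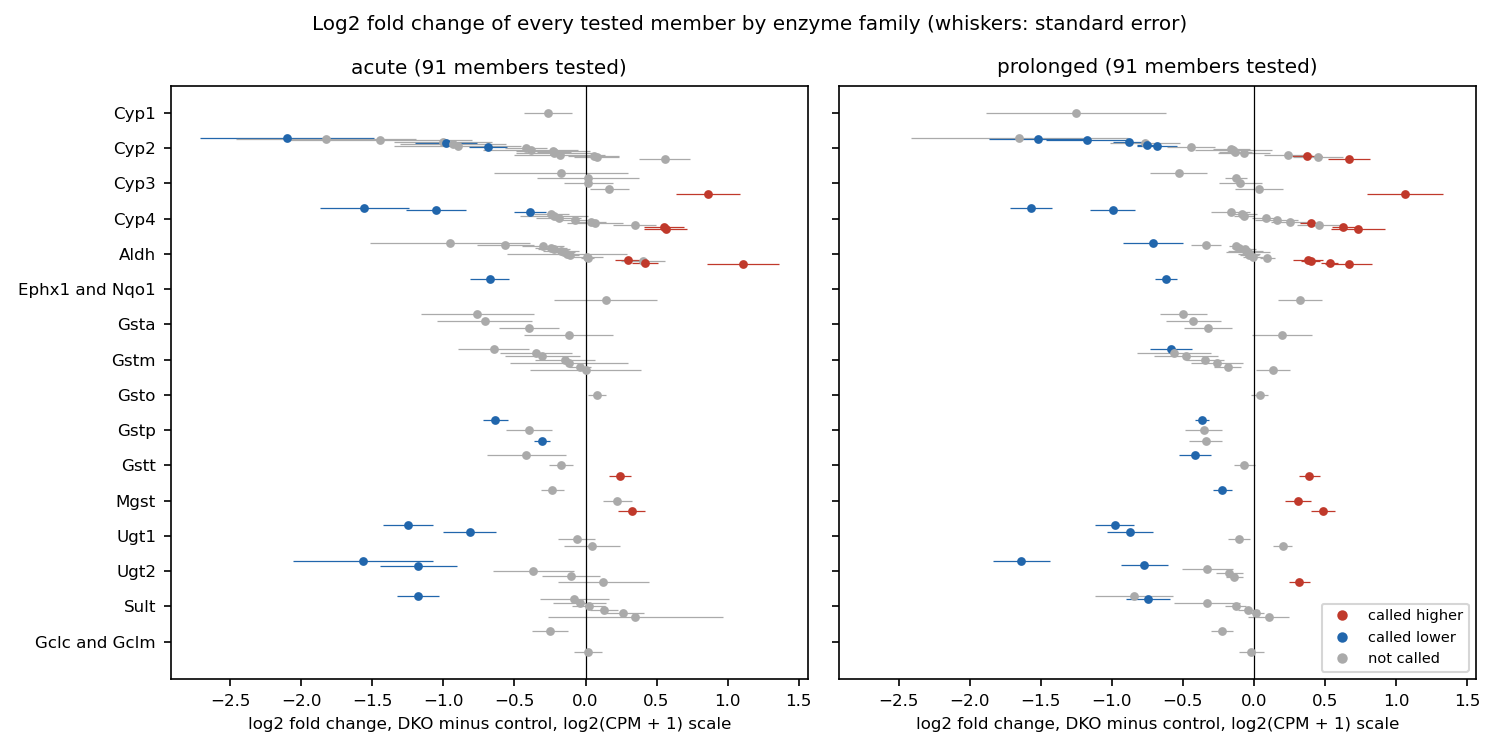
Log2 fold change (DKO minus control, horizontal axis, log2(CPM + 1) scale) of the 91 members tested at each time, acute on the left and prolonged on the right, in rows by enzyme family; each point is a gene, whiskers are standard errors, and red and blue mark genes called higher and lower. Lower calls lie furthest out in the Cyp2, Cyp4, Ugt1 and Ugt2 rows, and higher calls lie in the Aldh, Cyp3, Cyp4, Gstt and Mgst rows at both times and also in the Cyp2 and Ugt2 rows at the prolonged time.

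Most members belong to families of close relatives, among which the authors' counting could have split reads. By name alone, 56 of the 93 were set apart as such, and no sequences were compared, so how alike the copies are is not shown. Of the 55 such members tested, 3 were higher and 12 lower at the acute time and 7 and 15 at the prolonged time. Of the 36 tested outside these names, 5 and 2 were called at the acute time and 7 and 3 at the prolonged time. Of all genes, 2.90% were called higher and 12.1% lower, then 5.74% and 8.94%. The values of the Cyp2c, Cyp2d, Cyp2j, Cyp3a, Cyp4a, Cyp4f, Ugt, Gstm, Gstp and Gstt genes and of Gsta1, Gsta2, Aldh1a1, Aldh1a7, Sult1c2 and Sult1d1 are uncertain to that degree.

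Levels were ranked between genes per length of exon, and by CPM alone where this is said. By control CPM per kilobase of exon the most abundant members were Gsto1, an omega class glutathione transferase (499 CPM per kb in acute and 462 in prolonged controls), Aldh1b1, a mitochondrial aldehyde dehydrogenase (424 and 420 CPM per kb), and Cyp4f14, a fatty acid hydroxylase (395 and 428 CPM per kb). None of these 3 was called at either time. Their log2 fold changes were 0.08 ± 0.06 and 0.04 ± 0.06 for Gsto1, -0.24 ± 0.11 and -0.04 ± 0.08 for Aldh1b1, and 0.04 ± 0.11 and 0.09 ± 0.10 for Cyp4f14 (± SE, acute then prolonged). By CPM without the length, Cyp3a13, a P450 of the CYP3A drug-oxidising family (0.17 and -0.12), Ugt2b34, a glucuronosyltransferase (-0.10 and -0.14), and Cyp4v3, a fatty acid hydroxylase (-0.22 and -0.08), were also among the 5 highest at one time or both, and none was called. Without acute DKO 3 and 4 the acute values were -0.12 for Aldh1b1, 0.14 for Ugt2b34 and 0.04 for Cyp4v3.

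Among the cytochromes P450, 3 were higher and 6 lower of 35 tested at the acute time (2.90% and 12.1% of all genes). At the prolonged time 6 were higher and 7 lower of 34 (5.74% and 8.94% of all genes). The Cyp2c genes, whose products oxidise drugs and arachidonic acid, stand together on chromosome 19, Cyp2c44 apart, with Aldh18a1 as the nearest other member. All 8 members of that stretch, Aldh18a1 included, had a log2 fold change below 0 at the acute time and all 7 tested had one at the prolonged time, under each scaling tried. Cyp2c55 had 56.3, 145, 87.5, 85.5 and 101 CPM in the acute controls and 1.31 to 54.7 CPM with a median of 31.2 in acute DKO. In the prolonged model it had 75.8, 198 and 108 CPM in controls and 31.5, 27.6, 63.4, 68.6 and 28.3 CPM in DKO. Neither time had an overlap between the groups. The log2 fold change was -1.83 ± 0.64 at the acute time (limma adjusted p = 0.0695) and -1.52 ± 0.34 at the prolonged time (limma adjusted p = 0.0122), so that only the prolonged difference passed. Without acute DKO 3 and 4 the acute one passed too (-1.14, limma adjusted p = 0.00517), and without prolonged control 2 the prolonged one did not (limma adjusted p = 0.0537).

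The neighbouring Cyp2c68 had 47.8, 63.1, 55.5, 55.5 and 57.7 CPM in acute controls against 6.53 to 41.6 CPM with a median of 35.3 in DKO, and 47.3, 62.3 and 56.0 CPM against 31.4, 23.1, 31.4, 31.7 and 29.9 CPM at the prolonged time. No DKO library reached the lowest control at either time. Its log2 fold change was -1.01 ± 0.35 at the acute time (limma adjusted p = 0.0670) and -0.88 ± 0.11 at the prolonged time (limma adjusted p = 0.000391), and without acute DKO 3 and 4 the acute value was -0.61 (limma adjusted p = 0.00222). Cyp2c65 and Cyp2c66, a neighbouring pair, fell at the prolonged time (log2 fold changes -0.68 ± 0.14 and -1.17 ± 0.29, limma adjusted p = 0.00765 and 0.0178). The Cyp2c66 call was lost without prolonged control 2 or 3 (limma adjusted p = 0.0739 to 0.0756). At the acute time they had -0.90 ± 0.45 and -1.45 ± 0.65 and were not called, and without acute DKO 3 and 4 Cyp2c66 passed (-0.62, limma adjusted p = 0.0378) while Cyp2c65 did not (-0.37, limma adjusted p = 0.0845).

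Cyp2c29 had the lowest log2 fold change of all members. It had 5.68, 31.8, 31.5, 25.4 and 23.0 CPM in acute controls and 0.233 to 13.8 CPM with a median of 5.42 in acute DKO, and 6.82, 111 and 31.4 CPM in prolonged controls against 13.9, 1.67, 19.3, 6.36 and 13.4 CPM in DKO. The groups overlapped at both times. It fell at the acute time (-2.10 ± 0.61, limma adjusted p = 0.0347) and was not called at the prolonged time (-1.65 ± 0.76, limma adjusted p = 0.181). The acute call was lost without any one of controls 2, 3, 4 and 5 or DKO 1, 3 and 7 (limma adjusted p = 0.0534 to 0.0966), and without DKO 3 and 4 together (limma adjusted p = 0.0589). It was also lost in edgeR with TMM factors and DESeq2 (adjusted p = 0.0657 and 0.0691) and with the animal-number blocks (-0.91, limma adjusted p = 0.206). The low-level Cyp2c38 was called lower at the acute time, at 1.03 and 0.253 CPM (-0.69 ± 0.13, limma adjusted p = 0.00415), and had 1.73 and 0.559 CPM at the prolonged time (limma adjusted p = 0.0557). It failed the level filter in 5 of 12 fits with 1 library left out, those without any one of the 5 acute controls. It was therefore tested at the acute time through its control levels alone, which favours a lower call. No result is drawn from that call, though the counts above include it. Cyp2c70 was not called at the acute time (limma adjusted p = 0.0697) and was below the level for testing at the prolonged time (0.542 and 0.340 CPM). Cyp2c44 had -0.23 and -0.07 and was not called.

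**Figure D2:**
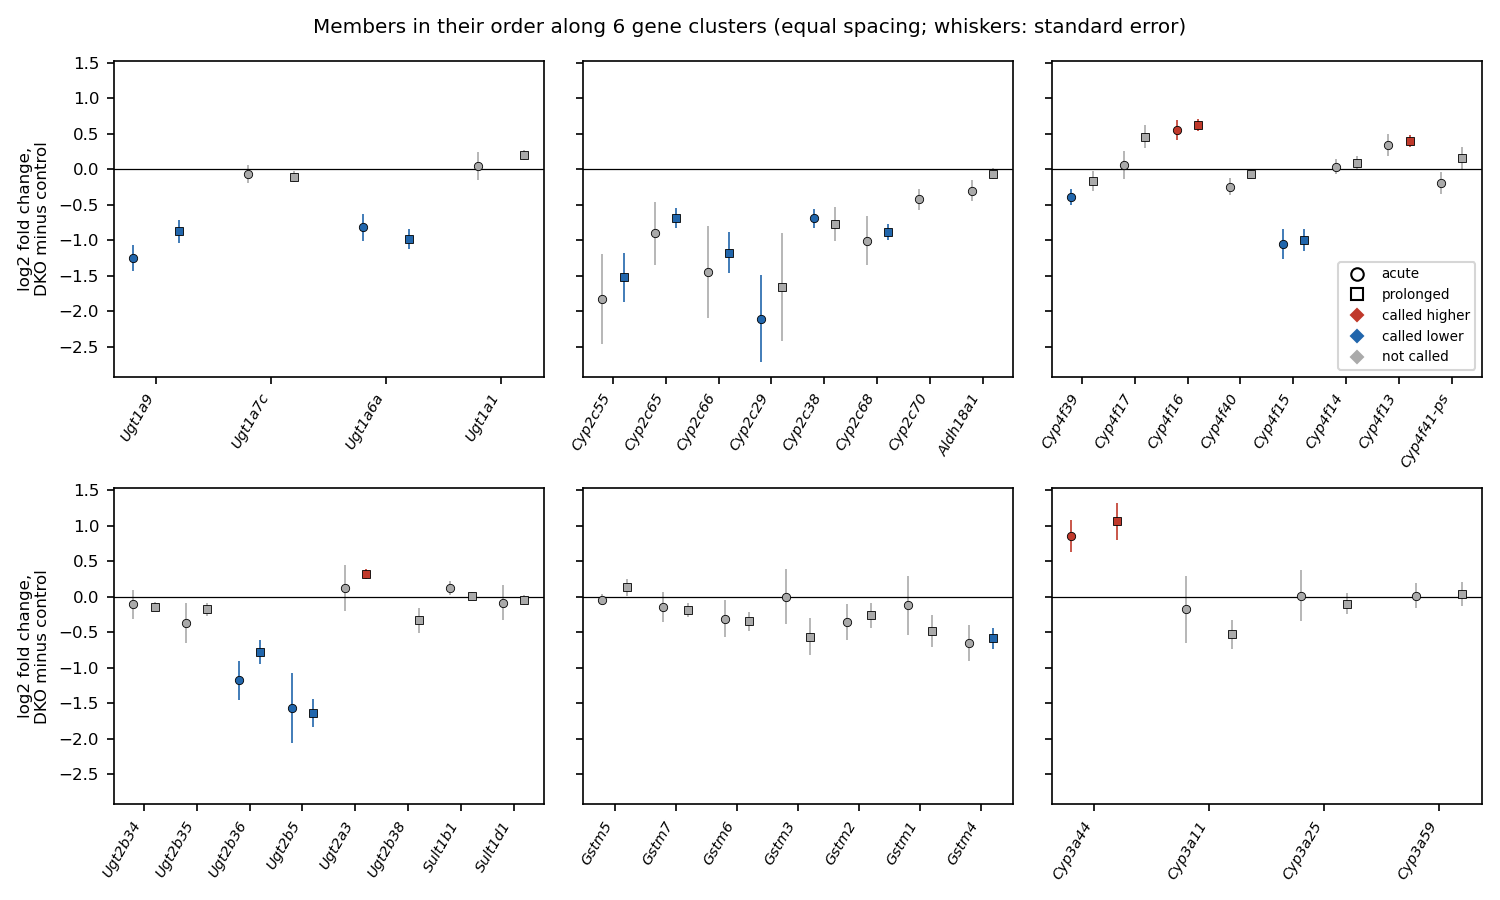
Log2 fold change (vertical axis, DKO minus control) of the members in their order along 6 gene clusters, equally spaced; circles are acute and squares prolonged values, whiskers are standard errors, and red and blue mark called genes. In the Cyp2c cluster every tested member lies below 0 at both times, while in the Ugt1a and Cyp4f clusters called members have neighbours close to 0 or on the other side of it.

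Cyp2s1 encodes a P450 found mainly outside the liver. It had 80.4, 109, 109, 93.1 and 77.7 CPM in acute controls and 23.9 to 70.3 CPM with a median of 46.3 in acute DKO, and 93.4, 88.0 and 88.8 CPM in prolonged controls against 52.6, 47.4, 53.6, 53.8 and 57.7 CPM in DKO. Every DKO library was below every control at both times. It fell at both times, with log2 fold changes of -0.98 ± 0.22 and -0.76 ± 0.06 (± SE, limma adjusted p = 0.00845 and 2.49e-05), with both calls kept in every fit that left out 1 library. In limma with all libraries and no composition factors, 2 of the remaining Cyp2 genes rose, both at the prolonged time only. Cyp2d22, a relative of the human drug-oxidising CYP2D6, went from 36.6 ± 11.1 to 57.1 ± 4.94 CPM with no overlap (0.67 ± 0.15, limma adjusted p = 0.0113), and had 0.56 ± 0.18 at the acute time (limma adjusted p = 0.0521), where it passed without DKO 3 and 4 (0.71, limma adjusted p = 0.0144). That acute rise also passed with all libraries under each composition scaling and tool tried and with the animal-number blocks. Cyp2j6, an arachidonic acid epoxygenase, went from 144 ± 18.8 to 187 ± 25.5 CPM with overlap (0.37 ± 0.11, limma adjusted p = 0.0351). Leaving out prolonged control 1 or 3 or DKO 1, 3 or 5 ended that call (limma adjusted p = 0.0506 to 0.155). The acute change of Cyp2j6 was 0.08 and not called, and it passed as higher without acute DKO 3 and 4 (0.29, limma adjusted p = 0.0473). Cyp2b10, the usual reporter of CAR activity, had 242 ± 45.0 CPM in acute controls, 233 ± 95.1 in acute DKO, 316 ± 122 in prolonged controls and 281 ± 79.5 in prolonged DKO, and was not called. Cyp2e1, an ethanol-oxidising P450 that also stands on the liver marker list, had 2.49 and 0.691 CPM, then 1.69 and 0.982 CPM (limma adjusted p = 0.114 and 0.104). Cyp2d26, Cyp2j9, Cyp2r1 and Cyp2u1 had values between -0.39 and 0.45 over both times, none of them called.

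Cyp4 enzymes hydroxylate the end of fatty acid chains, and Cyp4a10 is a known target of PPAR alpha. Cyp4a10 had 0.731, 5.12, 5.57, 3.86 and 2.02 CPM in the acute controls and 0 to 1.33 CPM with a median of 0.339 in acute DKO. The prolonged controls had 4.79, 4.53 and 5.35 CPM and prolonged DKO 1.27, 1.11, 0.550, 1.21 and 0.842 CPM. The acute groups overlapped and the prolonged groups did not. Its log2 fold change was -1.56 ± 0.31 (limma adjusted p = 0.00524) and -1.57 ± 0.15 (limma adjusted p = 4.98e-05), and without acute DKO 3 and 4 the acute value was -1.39 (limma adjusted p = 0.0153). Its neighbour Cyp4a32, at 0.580 and 1.25 CPM in controls, was not called (-0.07 and 0.25).

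The 8 Cyp4f members on chromosome 17 moved in both directions. Cyp4f15 had 0.860, 3.09, 2.268, 2.54 and 1.54 CPM in acute controls against 0.0429 to 0.914 CPM with a median of 0.527 in DKO, and 2.42, 2.18 and 3.13 CPM against 0.637, 0.433, 1.17, 0.922 and 0.842 CPM at the prolonged time. Its acute groups overlapped, where the lowest control lay below the highest DKO library, and its prolonged groups were apart. It fell at both times (-1.05 ± 0.21 and -0.99 ± 0.16, limma adjusted p = 0.00537 and 0.00174). Cyp4f16, near it in the cluster, had 114, 151, 123, 142 and 154 CPM in acute controls against 139 to 272 CPM with a median of 196 in DKO, and 119, 140.4 and 114 CPM against 209, 197, 204, 172 and 181 CPM at the prolonged time. Only the prolonged groups were apart. It rose at both times (0.55 ± 0.14 and 0.63 ± 0.08, limma adjusted p = 0.0178 and 0.000364), though without acute control 1 or 3 the acute call was lost (limma adjusted p = 0.0534 to 0.0556). Cyp4f13 rose at the prolonged time (0.40 ± 0.08, limma adjusted p = 0.00593) and had 0.34 ± 0.15 at the acute time, where it passed without DKO 3 and 4 (0.50, limma adjusted p = 0.0117). With all libraries its acute rise passed in DESeq2, in edgeR with factors other than TMM and with the animal-number blocks. It did not pass with TMM factors. Cyp4f39, at 0.817 against 0.389 CPM, fell at the acute time only (-0.39 ± 0.11, limma adjusted p = 0.0333). That call was lost without any one of controls 2, 3 and 4 or DKO 2, 3, 4, 6 and 7 (limma adjusted p = 0.0531 to 0.0972), without DKO 3 and 4 together (-0.35, limma adjusted p = 0.1002), after TMM scaling (limma adjusted p = 0.0523) and with the animal-number blocks (limma adjusted p = 0.187). Cyp4f14, Cyp4f17, Cyp4f40 and Cyp4f41-ps were not called, with log2 fold changes from -0.24 to 0.46.

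Cyp4b1, which oxidises short chain fatty acids and some toxins, had 39.9, 58.3, 55.5, 55.4 and 62.5 CPM in acute controls and 51.8 to 101 CPM with a median of 78.4 in DKO, and 45.1, 84.8 and 73.3 CPM against 136, 84.1, 118, 94.3 and 124 CPM at the prolonged time. The groups overlapped at both times. It rose at both times (0.56 ± 0.15 and 0.73 ± 0.19, limma adjusted p = 0.0236 and 0.0235), and the calls were lost without acute control 1 or 3 (limma adjusted p = 0.0522 to 0.0661) and without prolonged control 1 or DKO 5 (limma adjusted p = 0.0561 to 0.0785), the prolonged one also in DESeq2 (adjusted p = 0.0583). In the Cyp3a family, the main drug oxidases of the gut, only the low-level Cyp3a44 passed. It had 0.301, 0.942, 0.130, 0.297 and 1.11 CPM in acute controls against 0.836 to 2.87 CPM with a median of 1.67 in DKO, and 0.604, 2.01 and 1.71 CPM against 2.23, 4.88, 5.91, 2.86 and 4.69 CPM at the prolonged time, where the groups did not overlap. Its log2 fold changes were 0.86 ± 0.22 and 1.06 ± 0.26 (limma adjusted p = 0.0205 and 0.0197), and the calls were lost without acute control 1, 3 or 4 (limma adjusted p = 0.0563 to 0.0677), without acute DKO 3 and 4 (limma adjusted p = 0.0580), with the animal-number blocks (limma adjusted p = 0.0591) and without prolonged control 1 (limma adjusted p = 0.0799). Cyp3a11, the usual reporter of PXR activity, had 443 ± 155 and 431 ± 192 CPM, then 680.3 ± 237 and 463 ± 92.1 CPM (limma adjusted p = 0.850 and 0.106). Cyp3a25 and Cyp3a59 lay between -0.10 and 0.03. Without acute DKO 3 and 4 the acute log2 fold changes were 0.33 for Cyp3a11, 0.38 for Cyp3a25 and 0.19 for Cyp3a59, none called. Cyp1a1, the usual reporter of AHR activity, had 3.85 ± 0.734 CPM in acute controls, 3.09 ± 0.919 in acute DKO, 12.1 ± 12.2 in prolonged controls and 3.41 ± 2.21 in prolonged DKO, a spread among the 3 controls as large as their mean (limma adjusted p = 0.325 and 0.223).

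**Figure D3:**
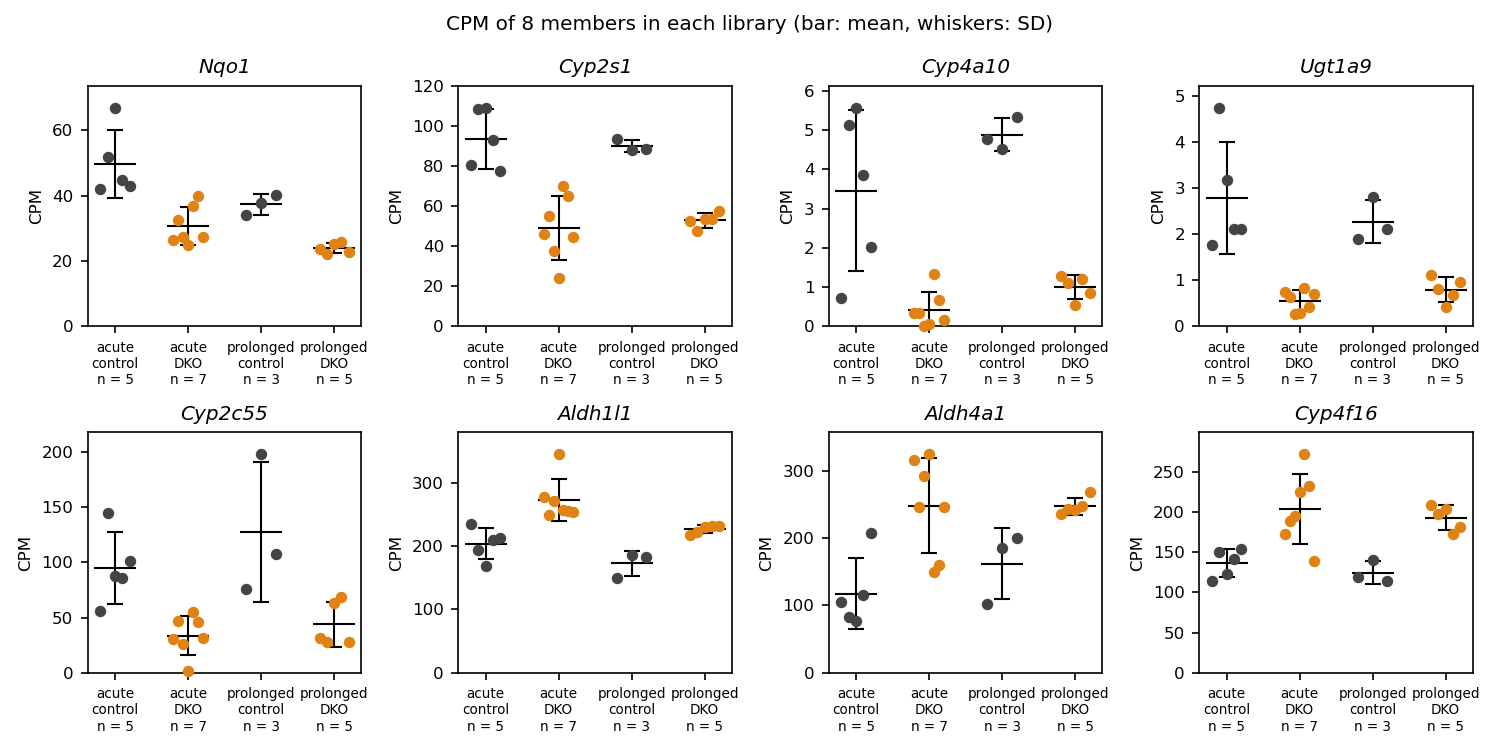
CPM (vertical axis, linear from 0) of 8 members in each of the 20 libraries, grouped by time and genotype; points are libraries, bars are means and whiskers SDs. Nqo1, Cyp2s1, Ugt1a9 and Cyp2c55 show DKO libraries below all controls at both times, and Aldh1l1 shows them above.

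Of 15 aldehyde dehydrogenases tested, 3 were called higher and 0 lower at the acute time, and 4 higher and 1 lower at the prolonged time, where 2.90% and 12.1%, then 5.74% and 8.94%, of all genes were called. The median log2 fold change of the 15 was -0.13 and -0.04. Aldh1l1, which oxidises formyl-tetrahydrofolate in one-carbon metabolism, had 235, 193, 169, 209 and 213 CPM in acute controls and 249 to 345 CPM with a median of 257 in DKO, and 149, 186 and 182 CPM against 217, 223, 230.2, 232 and 231 CPM at the prolonged time. Each DKO library exceeded each control of its time. It rose at both times (log2 fold changes 0.42 ± 0.09 and 0.40 ± 0.07, limma adjusted p = 0.00776 and 0.00288). Aldh4a1, which acts in the mitochondrial breakdown of proline, had 105, 82.9, 76.6, 115 and 208 CPM in acute controls against 149 to 324 CPM with a median of 246 in DKO, and 101, 185 and 199.5 CPM against 236, 243, 242, 248 and 268 CPM at the prolonged time. Here the acute groups overlapped and the prolonged did not. The log2 fold change was 1.11 ± 0.25 (limma adjusted p = 0.01), or 0.96 without DKO 3 and 4 (limma adjusted p = 0.0291), and 0.67 ± 0.17 (limma adjusted p = 0.0202). Both genes kept both calls in each fit that left out 1 library. The acute Aldh1l1 call was lost with the animal-number blocks (0.31, limma adjusted p = 0.0652), and the prolonged Aldh4a1 call in DESeq2 (0.61, adjusted p = 0.0639).

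Aldh6a1, which acts in valine and thymine breakdown, rose at the prolonged time from 45.3 ± 1.64 to 66.1 ± 3.68 CPM with no overlap (0.53 ± 0.06, limma adjusted p = 0.000153). Its acute change was 0.40 ± 0.15 (limma adjusted p = 0.0968), and without DKO 3 and 4 it was 0.59 (limma adjusted p = 0.00171). With all libraries the acute rise passed under each composition scaling and tool tried and with the animal-number blocks. Aldh7a1, which acts in lysine breakdown, went from 11.3 ± 0.918 to 14.1 ± 1.41 CPM and from 11.0 ± 1.07 to 14.6 ± 1.53 CPM (log2 fold changes 0.30 ± 0.09 and 0.38 ± 0.11, limma adjusted p = 0.0431 and 0.0339). Its acute call was lost without any acute library other than DKO 4 (limma adjusted p = 0.0593 to 0.113) and with the animal-number blocks (limma adjusted p = 0.0623), and the prolonged one without any prolonged control or DKO 1, 2 or 5 (limma adjusted p = 0.0537 to 0.109). Aldh1a1, a retinaldehyde dehydrogenase that makes retinoic acid, was the 1 lower call. It had 235, 468, 528, 347 and 294 CPM in acute controls and 24.7 to 443 CPM with a median of 258 in DKO, and 297, 429 and 343 CPM against 286, 131, 268, 197 and 230.4 CPM at the prolonged time. The prolonged groups did not overlap. The change was -0.95 ± 0.56 at the acute time (limma adjusted p = 0.287), or -0.26 without DKO 3 and 4 (limma adjusted p = 0.529), and -0.71 ± 0.21 at the prolonged time (limma adjusted p = 0.0408), which was lost without prolonged control 2 or 3 or DKO 4 or 5 (limma adjusted p = 0.0659 to 0.145), after TMM scaling (limma adjusted p = 0.0555) and in DESeq2 (adjusted p = 0.0750). Its close relative Aldh1a7 had -0.13 and -0.06 and was not called. Aldh3b2 was below the level for testing, at 0.547 and 0.0933 CPM and 0.522 and 0.0588 CPM, with DKO below control in every library at both times. It entered the list through its control means alone, a choice that favours such a separation, so no result is drawn from it. The other Aldh members tested, Aldh1b1, Aldh1l2, Aldh2, Aldh3a2, Aldh3b1, Aldh5a1, Aldh9a1, Aldh16a1 and Aldh18a1, had log2 fold changes from -0.56 to 0.09 and none passed.

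Nqo1 reduces quinones and is the textbook target of NRF2 and AHR. It had 41.9, 51.7, 66.9, 44.9 and 42.9 CPM in the acute controls and 24.8 to 39.8 CPM with a median of 27.4 in acute DKO. At the prolonged time controls had 33.9, 37.7 and 40.3 CPM and DKO 23.8, 22.1, 25.2, 25.8 and 22.7 CPM. No DKO library overlapped the controls. It fell at both times (log2 fold changes -0.67 ± 0.14 and -0.62 ± 0.08, limma adjusted p = 0.00586 and 0.000397), and the acute value was -0.59 without DKO 3 and 4 (limma adjusted p = 0.0158). Ephx1, the microsomal epoxide hydrolase and another gene usually listed with NRF2, had 19.5 ± 5.22 and 23.8 ± 10.8 CPM, then 26.4 ± 0.673 and 34.2 ± 8.65 CPM. With all libraries it was not called (0.14 ± 0.36 and 0.33 ± 0.15, limma adjusted p = 0.842 and 0.191). It passed as higher at the acute time without DKO 3 and 4 (0.59, limma adjusted p = 0.0439) and at the prolonged time without DKO 2.

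Ugt enzymes attach glucuronic acid to bilirubin, steroids and drugs. None rose and 4 of 9 tested fell at the acute time (2.90% and 12.1% of all genes), and 1 rose and 4 of 10 fell at the prolonged time (5.74% and 8.94%). The Ugt1a genes share their downstream exons and differ by a first exon, each with its own start, so reads in the shared exons cannot be assigned to 1 of them. The 300 bases around the 4 starts are shown because each of these transcripts has a start and promoter of its own: 250 bases before and 50 after the RefSeq start, plus strand, GRCm38.p6, with CpG dinucleotides in capitals.
Ugt1a9, chr1:88070529-88070828: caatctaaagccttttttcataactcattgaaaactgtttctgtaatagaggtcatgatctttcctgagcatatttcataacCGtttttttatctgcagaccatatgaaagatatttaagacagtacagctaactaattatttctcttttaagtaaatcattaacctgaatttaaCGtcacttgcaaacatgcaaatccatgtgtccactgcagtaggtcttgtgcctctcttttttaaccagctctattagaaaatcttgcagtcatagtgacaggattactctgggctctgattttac
Ugt1a7c, chr1:88094751-88095050: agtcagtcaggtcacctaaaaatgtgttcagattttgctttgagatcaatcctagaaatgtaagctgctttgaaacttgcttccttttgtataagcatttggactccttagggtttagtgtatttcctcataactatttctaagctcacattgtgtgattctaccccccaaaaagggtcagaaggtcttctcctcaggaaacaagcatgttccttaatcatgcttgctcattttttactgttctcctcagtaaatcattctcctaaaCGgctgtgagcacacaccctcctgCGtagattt
Ugt1a6a, chr1:88134559-88134858: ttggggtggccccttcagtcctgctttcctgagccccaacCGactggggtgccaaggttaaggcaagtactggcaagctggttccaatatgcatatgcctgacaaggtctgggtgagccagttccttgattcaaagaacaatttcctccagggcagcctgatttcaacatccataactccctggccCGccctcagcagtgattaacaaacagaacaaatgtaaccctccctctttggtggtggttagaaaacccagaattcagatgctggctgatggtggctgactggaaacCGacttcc
Ugt1a1, chr1:88211709-88212008: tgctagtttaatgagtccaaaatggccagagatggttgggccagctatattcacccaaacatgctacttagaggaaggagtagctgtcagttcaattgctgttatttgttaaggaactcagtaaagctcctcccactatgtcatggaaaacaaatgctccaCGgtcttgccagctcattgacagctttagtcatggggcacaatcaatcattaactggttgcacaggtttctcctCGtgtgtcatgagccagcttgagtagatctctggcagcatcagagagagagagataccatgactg
The windows hold 2, 2, 3 and 2 CpG, against a median of 4 over the 80 members with such a window in RefSeq and of 8 over 27025 genes.

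Of these 4, Ugt1a9 and Ugt1a6a, which have Ugt1a7c between them, fell at both times. Ugt1a9 had 1.76, 4.75, 3.17, 2.12 and 2.12 CPM in acute controls and 0.257 to 0.823 CPM with a median of 0.630 in acute DKO, and 1.9, 2.81 and 2.12 CPM against 1.11, 0.804, 0.413, 0.679 and 0.962 CPM at the prolonged time. Ugt1a6a, which conjugates planar phenols and is a known AHR target, had 2.41, 3.43, 4.28, 2.88 and 3.93 CPM against 0.373 to 2.01 CPM with a median of 1.65, and 4.40, 4.18 and 5.95 CPM against 1.91, 1.67, 1.93, 1.84 and 2.41 CPM. For both genes the groups were apart at both times. Log2 fold changes were -1.25 ± 0.18 and -0.87 ± 0.16 for Ugt1a9 (limma adjusted p = 0.000657 and 0.00376) and -0.82 ± 0.19 and -0.98 ± 0.14 for Ugt1a6a (limma adjusted p = 0.00990 and 0.000726), with every call kept when 1 library was left out. With the animal-number blocks the acute Ugt1a6a call was lost (-0.51, limma adjusted p = 0.116) and the acute Ugt1a9 call kept. Ugt1a7c and Ugt1a1, the bilirubin-conjugating enzyme, stood at far higher levels and were not called: Ugt1a7c had 194 ± 22.6 and 188 ± 34.2 CPM, then 212 ± 15.8 and 198 ± 18.0 CPM. Ugt1a1 had 127 ± 3.85 and 137 ± 36.6 CPM, then 157 ± 13.8 and 181 ± 11.0 CPM (limma adjusted p = 0.905 and 0.0617), and passed as higher at the acute time without DKO 3 and 4 (0.29, limma adjusted p = 0.00251). At the prolonged time it passed as higher with TMM factors in limma and edgeR, in DESeq2, and without control 1 or DKO 3.

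The Ugt2b cluster on chromosome 5 conjugates steroids and bile acids. Ugt2b5 had 8.26, 19.4, 30.3, 17.1 and 10.7 CPM in acute controls and 0.466 to 15.9 CPM with a median of 5.60 in DKO, and 16.0, 18.6 and 20.8 CPM against 7.09, 3.09, 6.46, 4.32 and 6.13 CPM at the prolonged time. Its acute groups overlapped and its prolonged groups were apart. It fell at the prolonged time (-1.64 ± 0.20, limma adjusted p = 0.000284). The acute change was -1.56 ± 0.49 (limma adjusted p = 0.0475), a call lost without any one of controls 2, 3, 4 and 5 or DKO 1, 3, 6 and 7 (limma adjusted p = 0.0525 to 0.137), without DKO 3 and 4 together (-1.04, limma adjusted p = 0.0796) and by edgeR with TMM factors (-1.41, adjusted p = 0.0978), as with the animal-number blocks (-0.74, limma adjusted p = 0.160). Ugt2b36 had 5.94, 8.70, 12.4, 10.9 and 7.64 CPM against 1.03 to 6.17 CPM with a median of 3.65, and 10.9, 8.77 and 7.26 CPM against 5.02, 3.40, 5.50, 6.11 and 4.27 CPM. Here too the groups overlapped at the acute time only. It fell at both times (-1.18 ± 0.27 and -0.77 ± 0.17, limma adjusted p = 0.0110 and 0.0101). The acute call was lost with the animal-number blocks (-0.76, limma adjusted p = 0.0517). The far more abundant Ugt2b34 and the mid-level Ugt2b35 were not called (log2 fold changes -0.10 and -0.14, and -0.37 and -0.17), and without acute DKO 3 and 4 their acute values were 0.14 and 0.0038. Ugt2a3 rose at the prolonged time from 142 ± 12.9 to 177 ± 14.0 CPM with overlap (0.32 ± 0.07, limma adjusted p = 0.0143), a call lost without prolonged control 1 or 3 (limma adjusted p = 0.0510 to 0.0794). At the acute time it passed only without DKO 3 and 4 (0.52, limma adjusted p = 0.00577, against 0.13 with them). Ugt2b38, at 0.541 and 0.675 CPM in controls, was below the level for testing at the acute time and not called at the prolonged time.

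Of 7 sulfotransferases, none rose (2.90% and 5.74% of all genes) and 1 fell at each time (12.1% and 8.94% of all genes), namely Sult1c2. It had 1.76, 2.94, 2.66, 2.46 and 1.59 CPM in acute controls and 0.140 to 0.775 CPM with a median of 0.575 in acute DKO, and 1.68, 1.26 and 1.71 CPM against 0.398, 0.865, 0.344, 0.340 and 0.722 CPM at the prolonged time. The groups were apart at both times. Its log2 fold changes were -1.18 ± 0.15 and -0.74 ± 0.15 (limma adjusted p = 0.000273 and 0.00786). The abundant members of this family were not called. Sult1b1, the thyroid hormone and phenol sulfotransferase of the gut, had 309.6 ± 27.6 and 341 ± 53.5 CPM, then 326 ± 24.6 and 329 ± 17.3 CPM, and Sult1d1 had -0.08 and -0.04 on the log2 scale. Sult6b2 had signs that differed between the times, 0.35 ± 0.62 acutely and -0.84 ± 0.27 in the prolonged model (limma adjusted p = 0.762 and 0.0602), neither called. Sult1a1, Sult2b1, the cholesterol sulfotransferase, and Sult6b1 had values from -0.33 to 0.26. Without acute DKO 3 and 4 the acute values were 0.02 for Sult6b2, 0.39 for Sult6b1 and 0.17 for Sult1d1, none called.

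Glutathione S-transferases, cytosolic and microsomal together, gave 2 higher and 2 lower calls of 21 at the acute time (2.90% and 12.1% of all genes). At the prolonged time they gave 3 higher and 4 lower of 21 (5.74% and 8.94% of all genes). In the pi class Gstp1 had 174, 195, 192, 182 and 198 CPM in acute controls and 139 to 176 CPM with a median of 151 in DKO, and 146, 144 and 145 CPM against 113, 104, 118, 113 and 113 CPM at the prolonged time. The groups overlapped at the acute time only. It fell at the prolonged time (-0.37 ± 0.05, limma adjusted p = 0.000607). Its acute change (-0.31 ± 0.06, limma adjusted p = 0.00331) did not pass after TMM scaling (-0.22, limma adjusted p = 0.0801) or in DESeq2 (-0.20, adjusted p = 0.0869). Gstp3 had 13.6, 13.4, 13.9, 12.3 and 12.1 CPM in acute controls against 6.88 to 9.23 CPM with a median of 8.16 in DKO and no overlap, and 8.63, 7.34 and 6.86 CPM against 5.33, 5.50, 5.91, 7.13 and 4.87 CPM at the prolonged time, with overlap. It fell at the acute time (-0.63 ± 0.09, limma adjusted p = 0.000555) and was not called at the prolonged time (-0.35 ± 0.13, limma adjusted p = 0.0890). Gstp2, the remaining pi gene, had -0.40 and -0.34 and was not called.

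Among the theta class genes, Gstt2 went from 35.2 ± 1.56 to 42.0 ± 4.41 CPM and from 32.4 ± 2.10 to 42.8 ± 3.18 CPM. Only its prolonged groups were apart. It rose at the prolonged time (0.39 ± 0.07, limma adjusted p = 0.00460), and its acute call (0.24 ± 0.08, limma adjusted p = 0.0458) was lost without any acute library other than DKO 4 (limma adjusted p = 0.0559 to 0.113) and with the animal-number blocks (0.29, limma adjusted p = 0.0827). Its neighbour Gstt1 fell at the prolonged time, from 60.5 ± 7.44 to 45.4 ± 6.41 CPM with no overlap (-0.41 ± 0.11, limma adjusted p = 0.0295), and that call was lost without prolonged control 2 or 3 or DKO 1 or 2 (limma adjusted p = 0.0504 to 0.111). The acute value of Gstt1 was -0.42 ± 0.28, or -0.06 without DKO 3 and 4. Gstt3 had -0.17 and -0.07. Of the 7 mu class genes, Gstm4 fell at the prolonged time, from 27.7 ± 5.87 to 18.1 ± 3.12 CPM (-0.58 ± 0.15, limma adjusted p = 0.0202), a call lost without prolonged control 2 or 3 (limma adjusted p = 0.0648 to 0.0816). The abundant Gstm1 and Gstm3 had 141 ± 36.4 and 103 ± 32.6 CPM, and 335 ± 95.5 and 231 ± 78.3 CPM, at the prolonged time and were not called. The log2 fold changes of the mu class ran from -0.65 to 0.00 at the acute time, where the sign of Gstm1 and Gstm5 changed with the scaling, and from -0.58 to 0.13 at the prolonged time. Without DKO 3 and 4 the acute values ran from -0.42 for Gstm4 to 0.38 for Gstm3, with 0.33 for Gstm1, none called. The alpha class, Gsta1 to Gsta4, had no call at either time (log2 fold changes -0.76 to -0.12, and -0.50 to 0.20). Without DKO 3 and 4 the acute values were -0.32 for Gsta1, -0.26 for Gsta2, 0.04 for Gsta3 and -0.25 for Gsta4, again with no call. At the prolonged time Gsta2 passed as lower without DKO 3, and with all libraries where no level filter was used.

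The 3 microsomal genes, membrane enzymes that conjugate or reduce lipid products, were all called at the prolonged time. Mgst1 had 206, 203, 263, 185 and 173 CPM in acute controls and 228 to 292 CPM with a median of 255 in DKO, and 201, 178 and 168 CPM against 289, 217, 267, 249.9 and 258 CPM at the prolonged time, where the groups were apart. It rose at the prolonged time (0.49 ± 0.09, limma adjusted p = 0.00308). The acute call (0.32 ± 0.09, limma adjusted p = 0.0309) was lost without any one of controls 1, 2, 4 and 5 or DKO 1 and 3 (limma adjusted p = 0.0550 to 0.0886) and with the animal-number blocks (0.27, limma adjusted p = 0.155). Mgst2, which can make the lipid mediator leukotriene C4, rose and Mgst3 fell at the prolonged time (0.31 ± 0.09 and -0.22 ± 0.07, limma adjusted p = 0.0428 and 0.0410). The Mgst2 call was lost without prolonged control 1 or 3 or DKO 1, 3, 4 or 5 (limma adjusted p = 0.0592 to 0.142), the Mgst3 call without any prolonged control or DKO 2, 4 or 5 (limma adjusted p = 0.0576 to 0.144), and both after TMM scaling (limma adjusted p = 0.0545 and 0.0589). At the acute time they had 0.22 and -0.23 and were not called, and Mgst2 passed without DKO 3 and 4 (0.32, limma adjusted p = 0.0232). The acute Mgst2 rise also passed with all libraries under each composition scaling and tool tried and with the animal-number blocks.

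Neither subunit of the enzyme that starts glutathione synthesis changed in a way that passed with all libraries. Gclc, the catalytic subunit, had 53.0, 62.2, 63.0, 62.6 and 50.1 CPM in acute controls and 47.7 to 70.2 CPM with a median of 55.4 in DKO, and 62.2, 60.8 and 69.7 CPM against 72.6, 53.5, 63.9, 60.7 and 67.4 CPM at the prolonged time (0.02 ± 0.10 and -0.02 ± 0.09, limma adjusted p = 0.935 and 0.922). Gclm, the modifier subunit, had 87.0, 135, 120.1, 108 and 106 CPM and 69.9 to 121 CPM with a median of 94.9, then 116, 144 and 120.1 CPM against 114, 103, 103, 118 and 102 CPM (-0.25 ± 0.13 and -0.23 ± 0.08, limma adjusted p = 0.220 and 0.0699). The groups of both genes overlapped at both times. Without prolonged control 1, Gclm passed as lower at the prolonged time.

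Of the 90 members tested at both times, 8 were called higher at both times and 10 lower, and none in opposite directions. Of all 13088 genes tested at both times, 1.70% were higher and 6.31% lower at both. Higher at both times were Aldh1l1, Aldh4a1, Aldh7a1, Cyp3a44, Cyp4b1, Cyp4f16, Gstt2 and Mgst1. Lower at both times were Cyp2s1, Cyp4a10, Cyp4f15, Gstp1, Nqo1, Sult1c2, Ugt1a6a, Ugt1a9, Ugt2b36 and Ugt2b5. A further 4 were lower at the acute time only, 6 higher and 8 lower at the prolonged time only, and 54 were called at neither. The sign of the log2 fold change was the same at both times for 78 of 90 members (86.7%) and for 9216 of 13088 genes (70.4%). The difference between the 2 times was itself tested, in 1 model of all 4 groups: no gene passed (0 of 13088 at an adjusted p of 0.05, 608 at an unadjusted p under 0.05), and 1 of 90 members had an unadjusted p under 0.05. The members' differences, prolonged minus acute, ran from -1.20 to 0.52, the smallest limma adjusted p was 0.859, and edgeR on whole reads also called no member and DESeq2 8 genes, none of them a member. A call at 1 time only is therefore not shown to differ from the other time.

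**Figure D4:**
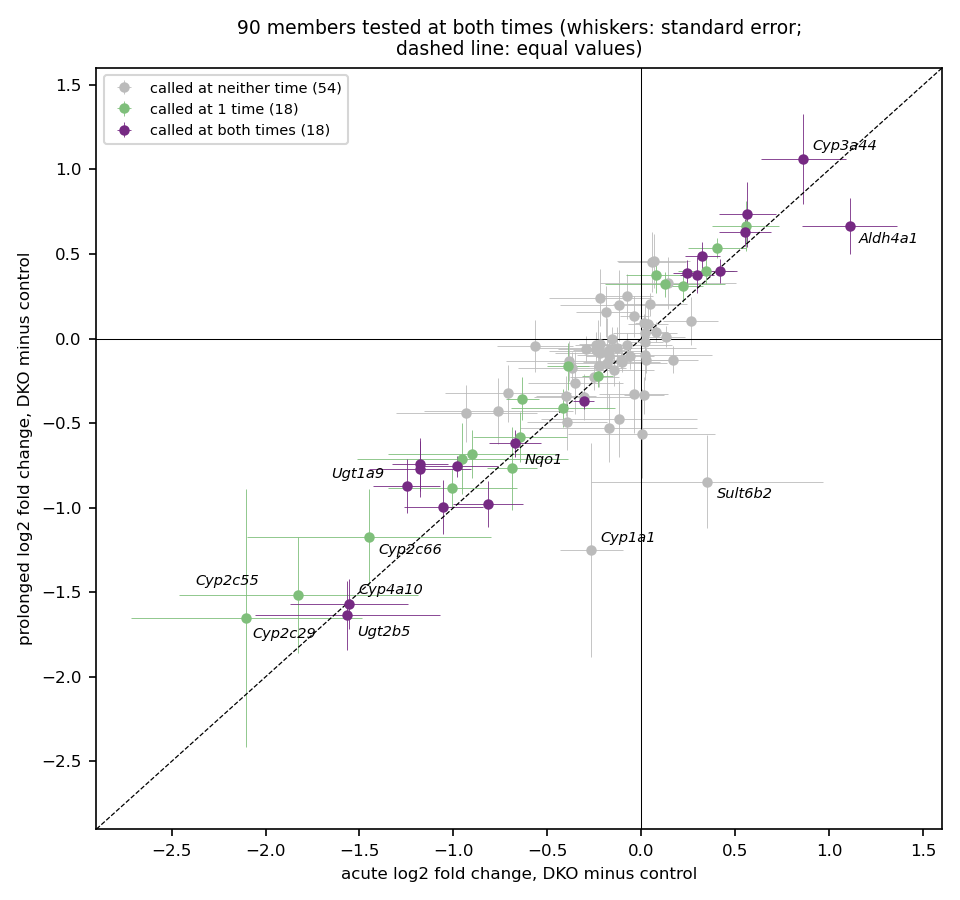
Acute (horizontal axis) against prolonged (vertical axis) log2 fold change, DKO minus control, for the 90 members tested at both times; whiskers are standard errors, the dashed line marks equal values, and colours mark the 18 members called at both times, the 18 called at 1 time and the 54 called at neither. Members called at both times lie on the same side of 0 on both axes.

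Other genes of the same metabolism, 116 in a list of regulators, P450 electron donors, glutathione cycle, NADPH supply, thioredoxin, carboxylesterase, conjugation and export genes, gave 4 higher and 18 lower calls of 111 tested at the acute time, when 2.90% of all genes were called higher and 12.1% lower, and 9 higher and 20 lower of 109 at the prolonged time (5.74% and 8.94% of all genes). Of the glutathione cycle genes, 3 rose and 6 fell of 27 at the acute time, and 3 rose and 4 fell of 26 at the prolonged time. Dpep1, a dipeptidase that completes glutathione breakdown, fell from 234 ± 40.3 to 106 ± 13.6 CPM and from 229 ± 46.9 to 112 ± 14.7 CPM (-1.13 ± 0.11 and -1.01 ± 0.13, limma adjusted p = 4.74e-05 and 0.00033). Gss, glutathione synthetase, named after its values were seen because it completes the synthesis that Gclc and Gclm start, fell at both times (-0.35 and -0.28, limma adjusted p = 0.00210 and 0.00902). Akr1c14, a hydroxysteroid dehydrogenase of the aldo-keto reductase family with near copies of its own, fell from 33.7 ± 5.34 to 9.68 ± 4.97 CPM and from 29.2 ± 5.62 to 8.75 ± 1.31 CPM (-1.88 ± 0.35 and -1.62 ± 0.14, limma adjusted p = 0.00337 and 2.88e-05). Fmo1, a flavin monooxygenase that oxidises drugs beside the P450s, fell from 8.11 to 2.21 and from 14.4 to 5.27 CPM (-1.58 ± 0.24 and -1.26 ± 0.19, limma adjusted p = 0.00100 and 0.00103). Of 8 export genes 3 fell at the acute time, and of 7 tested 2 fell at the prolonged time. Among 16 regulators, Rxra fell at the acute time (-0.25, limma adjusted p = 0.0246), Ahr fell (-0.24, limma adjusted p = 0.0414) and Ppara rose (0.35, limma adjusted p = 0.0240) at the prolonged time, and none of the others was called, Nfe2l2 and Keap1 of the NRF2 sensor included.

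Lists of genes usually induced through one sensor overlap the members and each other, so their counts are not independent of those above. Of 21 tested genes listed for NRF2, 3 were lower acutely and 5 in the prolonged model, and none was higher. For AHR 2 of 6 and 2 of 5 were lower, for PXR and CAR 1 of 15 and 4 of 15, and for PPAR alpha 3 of 10 and 2 of 10, with none higher. The share of all genes called lower was 12.1% and 8.94%. These counts are from all libraries without composition factors. Without acute DKO 3 and 4, Ephx1 of the NRF2 list and Ugt1a1 of the PXR and CAR list passed as higher at the acute time. In the same fit Cyp2c55 and Cyp2c66 of the PXR and CAR list passed as lower. At the prolonged time Ugt1a1 passed as higher with TMM factors and in DESeq2, and Ephx1 without DKO 2. Gclm and Cyp1a1 passed as lower without prolonged control 1, and Gsta2 without prolonged DKO 3.

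The promoter windows of the members were searched for the core antioxidant response element of NRF2 (TGACNNNGC) and the core xenobiotic response element of AHR (GCGTG), on both strands. The first stood in 11 of 80 members (13.8%) and in 14.0% of 27025 genes, the second in 31.2% of the members and 35.2% of all genes. Of the members called at the prolonged time, 4 hold the first motif: the neighbours Cyp2c65 and Cyp2c66, which fell, and Cyp2j6 and Mgst1, which rose. The windows of 3 are shown, the neighbouring pair and Mgst1, as one example in each direction; the Mgst1 window is at the first of its 2 RefSeq starts, and the second has no match. Capitals mark the match, which lies on the minus strand in each and so reads as the reverse complement.
Cyp2c65, chr19:39060756-39061055: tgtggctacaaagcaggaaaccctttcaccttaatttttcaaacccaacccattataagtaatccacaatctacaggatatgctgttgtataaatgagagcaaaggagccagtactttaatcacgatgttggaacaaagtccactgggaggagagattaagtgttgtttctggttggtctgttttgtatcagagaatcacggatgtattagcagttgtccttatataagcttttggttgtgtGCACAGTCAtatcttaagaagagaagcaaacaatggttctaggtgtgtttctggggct
Cyp2c66, chr19:39113648-39113947: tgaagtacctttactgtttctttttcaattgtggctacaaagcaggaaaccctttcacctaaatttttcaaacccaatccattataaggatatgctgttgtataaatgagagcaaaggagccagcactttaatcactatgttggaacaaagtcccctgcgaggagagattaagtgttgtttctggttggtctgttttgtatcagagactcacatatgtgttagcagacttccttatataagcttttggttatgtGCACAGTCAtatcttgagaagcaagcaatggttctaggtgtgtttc
Mgst1, chr6:138140277-138140576: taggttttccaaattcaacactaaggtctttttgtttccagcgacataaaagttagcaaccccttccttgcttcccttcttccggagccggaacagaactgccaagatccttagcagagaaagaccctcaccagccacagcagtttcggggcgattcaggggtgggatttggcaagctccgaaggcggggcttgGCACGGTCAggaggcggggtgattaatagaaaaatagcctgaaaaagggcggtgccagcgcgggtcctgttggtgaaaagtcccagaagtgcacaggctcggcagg
In Cyp2c65 the match starts at position -8 relative to the RefSeq start, and in Mgst1 at -56. Nqo1 and Ugt1a6a had no match to the first motif in this window. A match is a run of letters and says nothing of binding in these cells.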

How the data were processed

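Poly(A) RNA of 20 libraries was analysed from 1 deposited table per time. Values per library are CPM, which the authors scaled to an equal total, as the deposited columns show. Per the file headers the tables also hold the authors' DESeq2 log2 fold change, its standard error and an adjusted p-value, used here only as a reference and not printed. Tools listed in the submitters' processing notes, with no role for each, are featureCounts 1.6.2, STAR, DESeq2, bedtools 2.27.1, SAMtools 1.9 and FastQC 0.11.5, and the build listed is mm9. Strand and multiple mapping in the counting are not given in the sources used here.

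Each time was fitted alone with limma 3.58.1 (lmFit, eBayes with trend; R 4.3.3) on log2(CPM + 1), over genes with at least 0.5 CPM in at least 5 acute or 3 prolonged libraries. P-values were Benjamini-Hochberg adjusted over all genes tested and called under 0.05. On this scale a fold change understates the change of low genes. The difference between times was an interaction in 1 limma model. Whole reads, recovered from the deposited CPM steps (100% within 0.01 reads, with weaker evidence in prolonged control 3), went into edgeR 4.0.16 and DESeq2 1.42.0 as alternatives. The script was tested on simulated data. Within-group pairs of libraries differed by 6.49 to 148 times the sampling variance, so none was counted as a duplicate.

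The members, the gene lists and the tests were chosen with earlier results of these data known. Named were the 12 largest called rises and falls per time, the 5 highest control levels per time, Nqo1, Gclc, Gclm and Ephx1, and up to 6 of the largest called changes per time in the other lists; all further members were named after their values were seen, to account for the whole list. Exon lengths are from GENCODE M21, all other sequence from RefSeq (GRCm38.p6), and no coordinate was taken from mm9. All 93 members matched, 1 by an older symbol, and 80 had a promoter window.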

Additional observations from a re-analysis of the deposited data

Results flagged for a closer look

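In 117 groups of 4 to 10 libraries of the members, 1 library lay further from the rest than Dixon's 95% critical value allows in 4, and chance alone gives about 1 group in 20. Acute DKO library 4 had the highest Aldh1l1 level of its group at 344.65 CPM, where the other 6 lay between 249 and 278 CPM, and the lowest Ugt1a6a level at 0.373 CPM, where the others lay between 1.54 and 2.01 CPM. The calls of both genes were kept without this library. Prolonged DKO library 2 had 23.1 CPM of Cyp2c68, against 29.9 to 31.7 CPM in the other 4, and that call was also kept without it. Prolonged DKO library 1 had 0.318 CPM of the low-level pseudogene Cyp4f41-ps, against 0.776 to 0.902 CPM in the others.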

How the results depend on the processing

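With the replicate number as a block the acute members gave 3 higher and 8 lower calls and the prolonged members 5 and 8, and the other pathway genes 8 and 10 in all. Same-numbered libraries did not deviate together (correlations -0.20, 0.16, -0.16, -0.14 and 0.20 acute, -0.16, -0.23 and -0.24 prolonged), so the number is a label only. Blocks of neighbouring animal numbers gave 7 higher and 9 lower acute calls (12 of the 22 shared), DESeq2 gave 9 lower, and leaving out acute DKO 3 and 4 gave 15 higher. Leaving out 1 library at a time gave 2 (control 1) to 12 (DKO 4) higher and 10 to 17 lower acute calls, with 3, 4, 5 and 5 higher without control 3, control 4, control 2 and DKO 1. It gave 10 to 14 higher and 12 (control 2) to 27 (control 1) lower prolonged calls. Other pathway calls ran from 9 (control 4) to 28 acutely, with 14, 12, 10 and 14 without controls 1, 2 and 3 and DKO 1, and from 12 (control 3) to 26 in the prolonged model, with 19 without control 2. The members' median stayed between -0.25 and -0.08 acutely and -0.20 and -0.08 in the prolonged model when 1 library was left out, and was 0.02 with blocks of animal numbers. No member called at a time turned sign at that time under any setting, while 33 of 91 members did so at the acute time in at least 1 setting (21 with animal-number blocks, 18 without DKO 3 and 4, 9 with another scaling or tool) and 17 at the prolonged time. Of the 4 genes named whatever their values, 2 turned: Ephx1 acute was -0.0014 with the replicate block, and Gclc acute was -0.026 with the animal-number block and ran from -0.034 to 0.065 with 1 library left out (-0.015, -0.026, -0.013 and -0.0083 without control 1, DKO 2, DKO 4 and DKO 7), and Gclc prolonged from -0.067 to 0.041, above 0 without control 3 or DKO 2. The cause of these shifts was not tested. Choosing members at 1 CPM (83) or by the mean over all libraries (90) left each count of calls within 1.5 times its value. DESeq2 gave no adjusted p for Cyp2c38 and Cyp4f39 at the acute time. Members near the 0.5 CPM level rest on few reads per library, and at the prolonged time each test rests on 3 controls.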
